A study of Bos taurus with 60 samples.

Results

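The miR-15, miR-16 and miR-195 family was followed in the liver of beef steers as 6 mature microRNAs (miRNAs), bta-miR-15a, bta-miR-15b, bta-miR-16a, bta-miR-16b, bta-miR-195 and bta-miR-497, out of 1030 known mature miRNAs with a row in the count tables. The members were chosen by name, and each had 1 precursor, so that no averaging over precursors touched their counts. The study sequenced the small RNA of 60 steers, 20 each of the Angus and Charolais breeds and of Kinsella Composite (KC), a crossbred population, with 1 library per steer. Within each breed, 6 steers were labelled low-RFI and 6 high-RFI, and 8 carried no RFI group. Residual feed intake (RFI) is the feed an animal eats beyond or below what its growth and size predict, so that low-RFI steers are the more feed efficient. Barley grain made up 75% of the finishing ration that every steer received, beside 20% of barley silage and 5% of rumensin pellets. The steers had 7 sires in Angus, 5 in Charolais and 11 in KC, with up to 6, 8 and 8 steers of 1 sire, so that steers of a group were in part related. The sire code of low-RFI steer 3 in KC begins with NA and may stand for an unrecorded sire.

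Animal miRNAs of about this size guide Argonaute proteins to messenger RNAs that pair with bases 2 to 8 of the miRNA, the seed, and lower the output of those messengers. MiRNAs that share a seed share many predicted targets and are grouped as a family. The miR-15 and miR-16 family is best known for restraining the cell cycle through messengers of cyclins and cyclin-dependent kinases and for lowering the anti-apoptotic protein BCL2, and its miR-15a and miR-16 genes are lost in many chronic lymphocytic leukaemias. In mammals its genes lie in pairs that are transcribed together.

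The mature sequences are shown because they define the family and show which members can share reads. They were read from the supplementary sequence list of the study, written 5′ to 3′, and the capitals mark the seed.
bta-miR-15a: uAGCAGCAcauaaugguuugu
bta-miR-15b: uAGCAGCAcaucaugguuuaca
bta-miR-16a: uAGCAGCAcguaaauauuggug
bta-miR-16b: uAGCAGCAcguaaauauuggc
bta-miR-195: uAGCAGCAcagaaauauuggca
bta-miR-497: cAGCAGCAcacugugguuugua
bta-miR-424-5p: cAGCAGCAauucauguuuuga

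All 6 members carried 1 and the same seed. Of 588 mature sequences in the list, 7 held this seed, and the only one outside the members was bta-miR-424-5p, whose sequence is shown for that reason. Outside the seed, bta-miR-16a and bta-miR-16b were identical over their first 20 bases, with 1 mismatch in the 21 bases compared and a length difference of 1. A read that stops before the last bases, or carries an error there, cannot be given to one of the pair with certainty, so the separate counts of bta-miR-16a and bta-miR-16b, and their order, are uncertain. The supplementary list of the study also gives mean counts, and for bta-miR-16b these are well above the deposited counts and above those of bta-miR-16a, while the other 5 members are close. Levels, shares, ranks and ratios that involve bta-miR-16b therefore hold for the deposited counts only. Next in likeness were bta-miR-16b and bta-miR-195, with 2 mismatches in 21 bases, and bta-miR-15a and bta-miR-15b, with 3 mismatches in 21 bases. The most distant pairs were bta-miR-497 with bta-miR-16a and with bta-miR-16b, at 10 mismatches each.

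By the gene symbols of RefSeq on the ARS-UCD2.0 assembly, used here only for which genes neighbour each other, the 6 members formed 3 pairs of adjacent genes. MIR15A lay beside MIR16A, MIR15B beside MIR16B inside SMC4, which codes for a condensin subunit that compacts chromosomes, and MIR195 beside MIR497. The pairing rests on names: the precursor that the count files give for each of the 6 members stands among the RefSeq synonyms of its gene, but no precursor sequence was compared, so which of bta-miR-16a and bta-miR-16b goes with bta-miR-15a is not settled by sequence.

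Totals ranged from 1930859 to 6759381 counts per steer, with a median of 4390274, and the KC steers had the highest median total, 5547018 against 3720336 in Angus and 4405876 in Charolais. Levels are given below as CPM, the counts of a miRNA relative to a fixed library total, scaled by trimmed mean of M values (TMM), and 3 counts correspond to 0.444 to 1.554 CPM. The labels give no sequencing pool, so that breed and pool cannot be told apart. As a check of the tissue, the hepatocyte miRNAs bta-miR-192 and bta-miR-122 were present in every steer, at no less than 168004 CPM and 5069.5 CPM.

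Every member was well above the limit of detection in every steer. The lowest single count of any member was 33, for bta-miR-15b. Together the 6 members took 0.196% ± 0.027 (SD, n = 60 steers) of all counts, with a range of 0.0961% to 0.253%. The pair bta-miR-16a and bta-miR-16b made up 64.2% ± 1.89 of the family's counts (SD, n = 60), between 59.8% and 69.0% in every steer of the deposited files. bta-miR-15a followed with 16.95% ± 1.54, bta-miR-195 with 12.3% ± 1.90, bta-miR-497 with 5.47% ± 0.73 and bta-miR-15b with 1.06% ± 0.17.

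In CPM, bta-miR-16a, a member best known for halting cells before DNA synthesis, was the highest in the deposited counts at 685.2 ± 81.0 (SD, n = 60) and ranked 53rd by mean count among all known miRNAs. bta-miR-16b followed at 564.7 ± 58.3 and rank 59. bta-miR-15a stood at 329.1 ± 34.8 and rank 75, and bta-miR-195, which is known in heart and muscle for restraining cell division after birth, at 239.0 ± 39.9 and rank 83. bta-miR-497 stood at 106.6 ± 16.96 and rank 106. bta-miR-15b was the lowest, at 20.7 ± 3.81 and rank 181. Counts of different miRNAs also depend on how well each ligates to the adapters, so that these levels order the libraries and not strictly the molecules.

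The order held within nearly every steer. bta-miR-16a had more counts than bta-miR-16b in 54 of 60 steers, by a ratio of 1.22 ± 0.17 (SD), so that these neighbours in the order did overlap. bta-miR-16b exceeded bta-miR-15a in all 60 steers by a ratio of 1.72 ± 0.17. bta-miR-15a exceeded bta-miR-195 in 56 of 60 steers, by a ratio of 1.42 ± 0.32 that went down to 0.81 in KC. bta-miR-195 exceeded bta-miR-497 in all 60 steers by a ratio of 2.28 ± 0.45, and bta-miR-497 exceeded bta-miR-15b in all 60 by a ratio of 5.33 ± 1.37.

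Members from adjacent genes did not have equal counts. bta-miR-16a had 2.10 ± 0.31 times the counts of its neighbour bta-miR-15a (SD, n = 60), and bta-miR-16b had 28.2 ± 6.52 times those of its neighbour bta-miR-15b. The second ratio ran from 20.0 to 66.0, with the highest value in a Charolais steer. Both ratios rest on how reads were divided between bta-miR-16a and bta-miR-16b and on the pairing of genes by name.

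At the median, the members varied less between steers of a breed than tested miRNAs in their range of levels. The coefficient of variation of CPM over 20 steers lay between 10.1% and 20.8% for the 6 members in Angus, between 10.1% and 22.4% in Charolais and between 8.52% and 18.98% in KC. The median over the members was 12.6%, 13.5% and 11.3% in the same order, beside medians of 17.8%, 19.3% and 16.4% over the 128 tested miRNAs whose mean level lay within the members' range. The most variable members, bta-miR-497 in Angus and bta-miR-15b in Charolais and KC, lay above these medians. This comparison is a description, since members and all miRNAs share the same libraries.

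**Figure D1:**
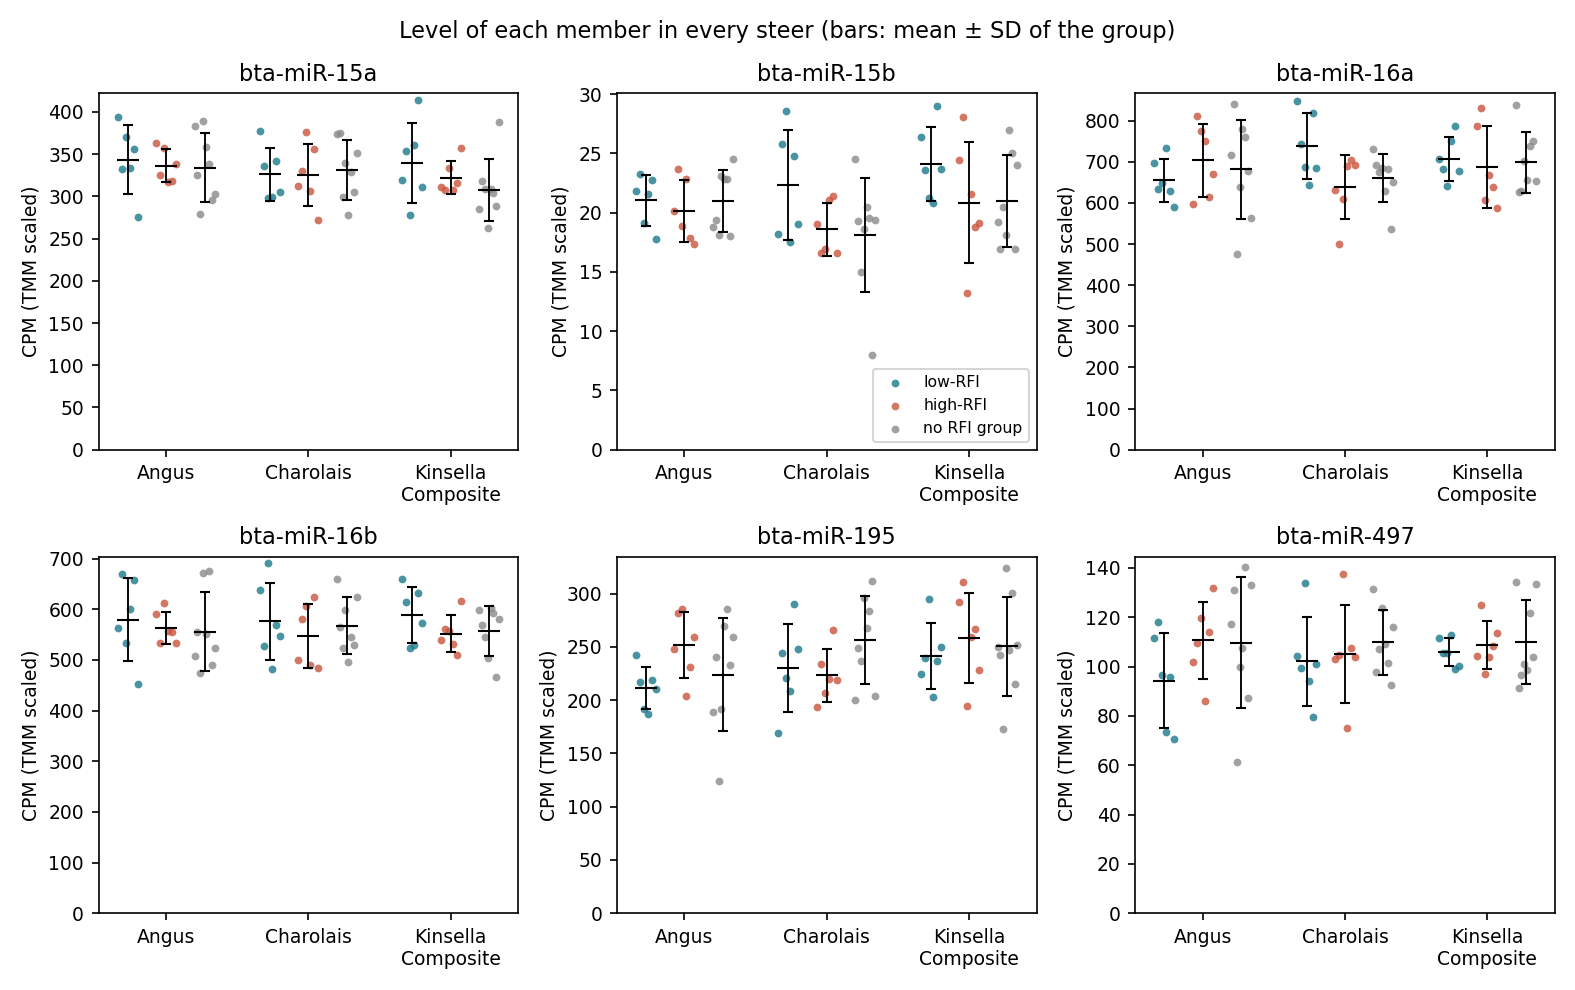
Level of the 6 members in CPM (vertical axes, from 0) by breed, with low-RFI, high-RFI and ungrouped steers as separate columns of points and the mean ± SD of each column. The columns overlap in every panel, and 1 ungrouped Charolais steer stands low for bta-miR-15b at 8.01 CPM.

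Whether the family differed with feed efficiency was asked first within each breed, low-RFI against high-RFI, with edgeR's quasi-likelihood F test on 6 against 6 steers. The call rule took an unadjusted p under 0.05 together with a fold change above 1.5. None of the 6 members was called in any breed. Over all miRNAs tested, the rule called 10 of 373 (2.68%) for Angus, 9 of 373 (2.41%) for Charolais and 7 of 385 (1.82%) for KC, and none of them passed an adjusted p under 0.05, so that 0 of 6 members lies near the background. At an unadjusted p under 0.05 alone, 15, 20 and 17 miRNAs passed, and among them was 1 member in 1 breed, bta-miR-195 in Angus. P-values measure the spread between steers, some of which share a sire.

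The smallest p of a member within a breed was that of bta-miR-195 in Angus. The low-RFI steers stood at 187.2 CPM at the lowest, 213.8 at the median and 242.4 at the highest, and the high-RFI steers at 204.2, 253.7 and 285.2. The groups overlapped, but the highest low-RFI steer lay below the high-RFI median. The log2 difference, low-RFI minus high-RFI, was -0.22 ± 0.099 (SE; 95% interval -0.43 to -0.0093; edgeR unadjusted p = 0.0416, adjusted p = 0.957), which is 0.86 times the high-RFI level and within the fold limit. The exact permutation test gave p = 0.0563, where 924 relabelings allow none below 0.00216. Leaving out 1 steer at a time moved the difference from -0.29 without low-RFI steer 2 to -0.18 without low-RFI steer 8, with an unadjusted p from 0.00891 to 0.103. The differences were 0.057 ± 0.14 in Charolais and -0.061 ± 0.12 in KC, and the interaction of RFI with breed was not called (edgeR adjusted p = 0.987).

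For bta-miR-497, whose gene is the neighbour of MIR195, the log2 difference in Angus was -0.19 ± 0.13 (edgeR p = 0.172, adjusted p = 0.957; exact permutation p = 0.208). Its medians were 96.2 CPM (low-RFI) and 111.9 CPM (high-RFI), with ranges of 70.6 to 118.0 and 86.1 to 131.9 that overlapped widely. With sire as a block, the difference was -0.56 ± 0.20 (95% interval -0.997 to -0.125; edgeR unadjusted p = 0.0157, adjusted p = 0.669), and 5 of the 12 steers had a sire with steers in both RFI groups. In Charolais and KC its differences were -0.032 ± 0.15 and -0.0081 ± 0.083.

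The difference of bta-miR-15b was positive, that is toward low-RFI, in all 3 breeds, and it was called in none. In Angus the low-RFI steers ran from 17.8 to 23.2 CPM with a median of 21.7, and the high-RFI steers from 17.4 to 23.7 with a median of 19.5. In Charolais the low-RFI values were 17.6 to 28.6 against high-RFI values of 16.6 to 21.4, so that 3 of the low-RFI steers stood above every high-RFI steer. In KC they were 20.8 to 29.0 with a median of 23.6 against 13.2 to 28.1 with a median of 20.4. All 6 low-RFI KC steers lay above the high-RFI median, but 3 high-RFI steers, at 21.6, 24.4 and 28.1 CPM, stood within the low-RFI range.

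For bta-miR-15b the log2 difference came to 0.13 ± 0.13 (Angus), 0.29 ± 0.16 (Charolais) and 0.25 ± 0.16 (KC), with exact p = 0.342, 0.119 and 0.126 by permutation, adjusted p of at least 0.932 over all miRNAs tested. In 1 fit of the 36 steers with breed as a term, the difference was 0.19 ± 0.082 (95% interval 0.029 to 0.36, a fold of 1.14; n = 36; edgeR p = 0.0225), which ranked 7th of 426 miRNAs and had an adjusted p of 0.830. With sire as a block, the within-breed differences went to -0.030 ± 0.26 in Angus, 0.015 ± 0.42 in Charolais and -0.011 ± 0.44 in KC. Their 95% intervals, -0.58 to 0.52, -0.89 to 0.92 and -1.1 to 1.1, held the values without the block. The blocked fits were therefore too imprecise to tell whether the difference remained. With its low level, 33 to 156 counts per steer, this member had the widest intervals of the family in Charolais and KC.

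The next smallest p was that of bta-miR-16a in Charolais, which was not called. The low-RFI steers ran from 644.4 to 847.7 CPM with a median of 716.4, and the high-RFI steers from 501.2 to 705.6 with a median of 661.2, so that 3 low-RFI steers stood above every high-RFI steer. The log2 difference was 0.22 ± 0.12 (edgeR p = 0.0894, adjusted p = 0.857; exact permutation p = 0.0758). Scaled to library totals alone, the exact p was 0.0303, with an adjusted p of 0.886 over all miRNAs tested. With sire as a block, the difference was 0.50 ± 0.22. Only 5 of the 12 steers, all of 1 sire, came from a sire with both RFI groups. Among them was 1 low-RFI steer, at 847.7 CPM, so that the blocked value rests on that steer and no p-value is given. In Angus the difference had the other sign, at -0.067 ± 0.092, and in KC it was 0.076 ± 0.089.

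bta-miR-16b had small positive differences, 0.073 ± 0.093 (Angus), 0.085 ± 0.12 (Charolais) and 0.12 ± 0.077 (KC). bta-miR-15a, at 0.067 ± 0.090, 0.012 ± 0.11 and 0.10 ± 0.089, was the member nearest to 0 in Charolais. With sire as a block, bta-miR-15a went to -0.17 ± 0.13 and bta-miR-16b to -0.13 ± 0.14 in Angus. Over all miRNAs, the block raised the median size of the log2 difference. This median went from 0.12 to 0.19 (Angus), from 0.14 to 0.40 (Charolais) and from 0.10 to 0.23 (KC). In the same order, 10, 42 and 15 miRNAs met the call rule with the block, against 10, 9 and 7 without it. In Charolais, 5 passed an adjusted p under 0.05 with the block. Without a block, the 95% intervals of bta-miR-15a, bta-miR-16a, bta-miR-16b, bta-miR-195 and bta-miR-497 stayed inside the fold limit of 1.5 in all 3 breeds, while with sire as a block those of bta-miR-497 in Angus and bta-miR-16a in Charolais, among others, passed it. Without the block, those that reached furthest were the intervals of bta-miR-16a in Charolais, from -0.037 to 0.47, and of bta-miR-497 in Angus, from -0.47 to 0.092. For bta-miR-15b the interval reached 0.64 in Charolais and 0.59 in KC, so that a difference of 1.5-fold could not be told from none there.

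The fit of 36 steers left 1 miRNA of 426 (0.235%) with an adjusted p under 0.05, which was no member. Apart from bta-miR-15b, the members lay between -0.11 ± 0.072 for bta-miR-497 and 0.063 ± 0.052 for bta-miR-16b. No miRNA of 426 (0%) had an interaction of RFI and breed at an adjusted p under 0.05. At an unadjusted p under 0.05 there were 20, and DESeq2 and the likelihood ratio test each called 1 at an adjusted p under 0.05. The smallest interaction p of a member was 0.136, for bta-miR-16a (adjusted p = 0.976).

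**Figure D2:**
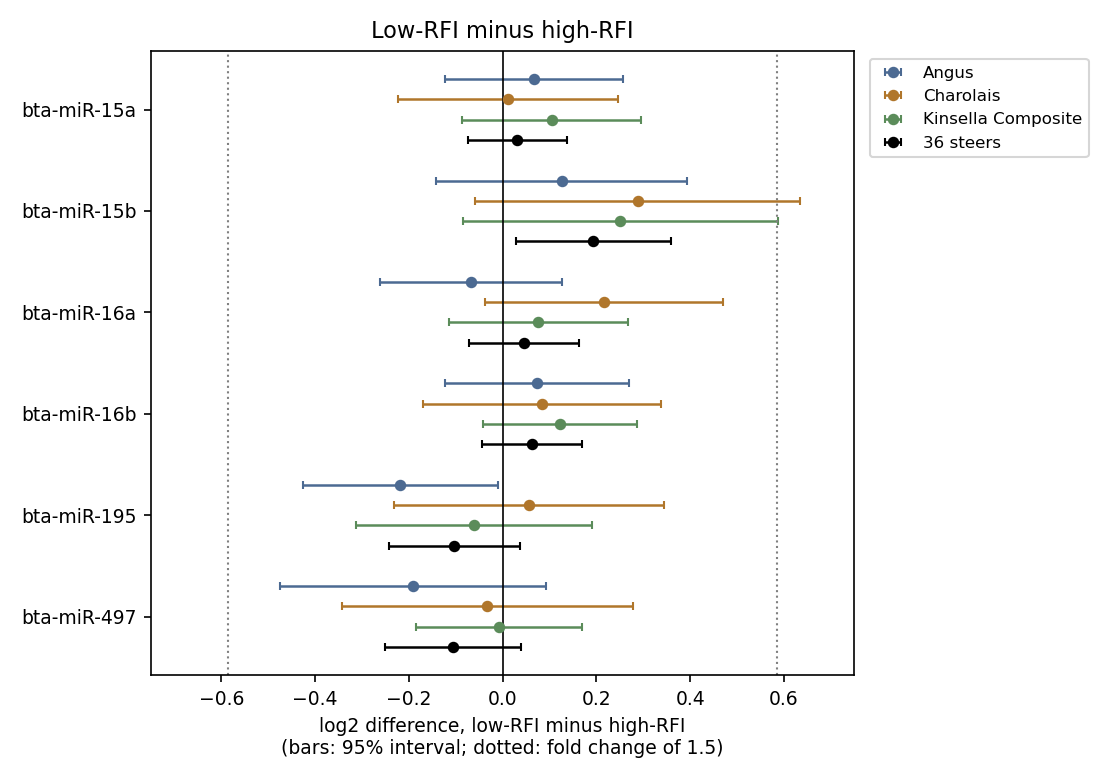
Log2 difference, low-RFI minus high-RFI, of each member (horizontal axis) with its 95% interval, for the 3 breeds and for the fit of 36 steers; dotted lines mark a fold change of 1.5. The intervals of bta-miR-195 in Angus and of bta-miR-15b over 36 steers leave out 0, and those of bta-miR-15b in Charolais and KC reach the dotted line.

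The summed level of the 6 members is given as values only, without a test. Low-RFI and high-RFI steers had 1905 ± 152 and 1986 ± 117 CPM among Angus, 1995 ± 154 and 1859 ± 130 CPM among Charolais, and 2007 ± 114 and 1949 ± 136 CPM among KC steers (SD, n = 6 each). The ranges overlapped in every breed.

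No member passed the test between breeds. With 20 steers each, 0 of 6 members passed an adjusted p under 0.05 in any of the 3 breed comparisons by edgeR, and none had an unadjusted p under 0.05. Over all 443 miRNAs tested, 6 (1.35%) passed for Charolais against Angus, 50 (11.3%) for KC against Angus and 76 (17.2%) for KC against Charolais, and 76, 117 and 124 had an unadjusted p under 0.05.

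The flattest member was bta-miR-16b, whose mean CPM by breed was 565.2 ± 65.9 for Angus, 563.9 ± 62.4 for Charolais and 564.9 ± 48.1 for KC (SD, n = 20 each). Its log2 differences were -0.0039, -0.0015 and 0.0024, each with a SE of 0.050, so that the 95% intervals ran no further than -0.10 to 0.10. bta-miR-16a was at 680.4 ± 91.6, 677.2 ± 79.3 and 697.8 ± 73.8 CPM, and bta-miR-497 at 105.4 ± 21.9, 106.2 ± 16.2 and 108.4 ± 12.03. The ranges of the 3 breeds overlapped for both.

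bta-miR-15a ran from 337.7 ± 34.2 CPM in Angus through 328.1 ± 33.0 in Charolais to 321.7 ± 37.1 in KC, and its difference for KC against Angus was -0.071 ± 0.051 (n = 20 each; edgeR p = 0.166, adjusted p = 0.409). bta-miR-195 had the opposite order, 228.5 ± 40.8, 238.4 ± 38.3 and 250.1 ± 39.6 CPM, and its difference for KC against Angus was 0.13 ± 0.077 (95% interval -0.024 to 0.28; n = 20 each; p = 0.0979, adjusted p = 0.294). The largest difference between breeds was that of bta-miR-15b, 21.9 ± 4.15 CPM in KC against 19.5 ± 4.38 in Charolais, at 0.16 ± 0.086 (95% interval -0.014 to 0.33; n = 20 each; p = 0.0706, adjusted p = 0.217). Every member's interval in every breed comparison stayed inside -0.27 to 0.33, well within a fold change of 1.5.

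**Figure D3:**
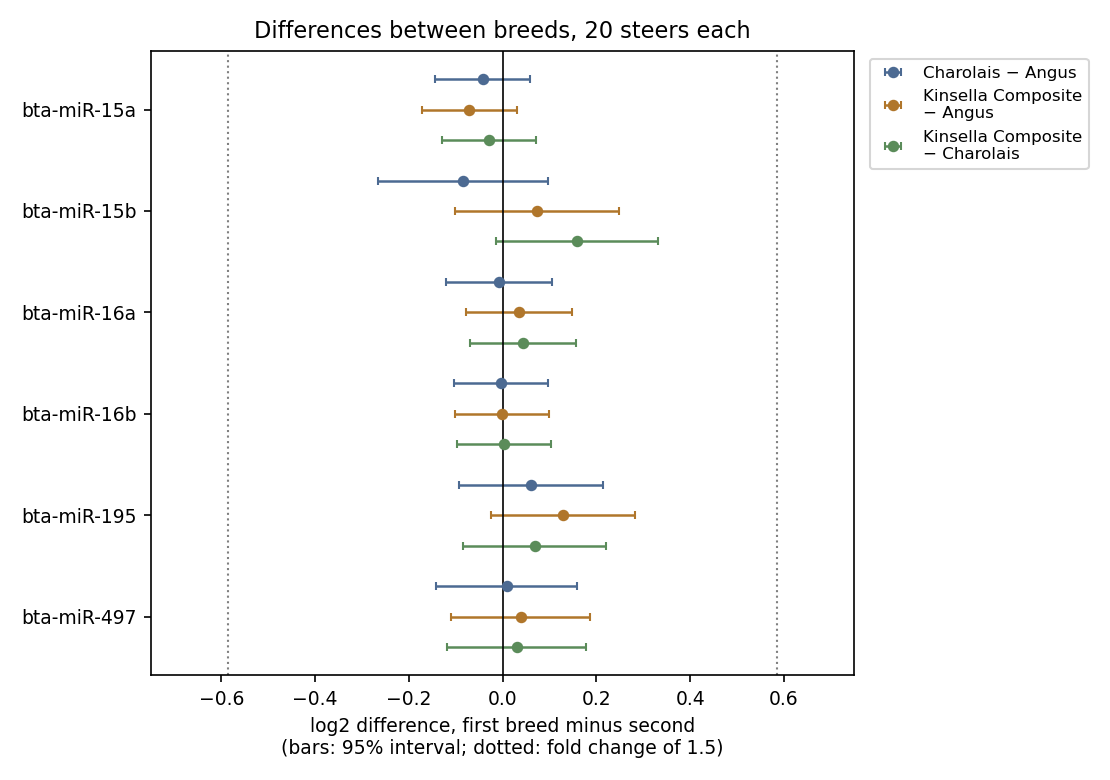
Log2 difference between breeds for each member (horizontal axis, first breed minus second) with its 95% interval, 20 steers per breed; dotted lines mark a fold change of 1.5. All 18 intervals include 0 and lie inside the dotted lines.

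Whether the members rose and fell together from steer to steer was asked over the 60 steers, with the mean of each breed subtracted from log2 CPM. For the 15 pairs of members, Pearson's r ran from -0.10 to 0.57 with a median of 0.27, and 14 pairs were positive. By permutation within breeds, 5 pairs passed an adjusted p under 0.05 over the 15 pairs by Pearson's r and 4 by Spearman's rho. As background, the median r over the 16110 pairs among 180 miRNAs at least as abundant as bta-miR-15b was 0.0030, with 5% of pairs below -0.38 and 5% above 0.44. Of the 5 pairs that passed, only bta-miR-15a with bta-miR-16b lay in that upper 5%. The others stood above 91.67% to 94.81% of the background pairs. The permutation test asks whether r differs from 0, and how many background pairs would pass it was not computed. This relation depended on the scaling. With library totals alone, r ran from 0.36 to 0.84 and all 15 pairs passed by Pearson's r and 13 by Spearman's rho. No background was computed on that scale, so these counts cannot be read as particular to the members.

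The closest pair was bta-miR-15a and bta-miR-16b, with r = 0.57 (permutation p = 1e-05, the smallest that 100000 permutations can give, adjusted p = 0.00015) and rho = 0.59 (p = 1e-05, adjusted p = 0.00015). Without the 2 steers farthest from the median of bta-miR-15a, r was 0.57. Within breeds, r was 0.56 (Angus), 0.66 (Charolais) and 0.50 (KC). By the RefSeq names these genes are not neighbours, which was not checked by sequence.

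The neighbours bta-miR-15a and bta-miR-16a had r = 0.20 (permutation p = 0.121, adjusted p = 0.171) and rho = 0.17 (p = 0.191, adjusted p = 0.261), with 0.38, 0.29 and -0.095 within Angus, Charolais and KC. The neighbours bta-miR-15b and bta-miR-16b had r = 0.41 (permutation p = 0.00077, adjusted p = 0.00375) and rho = 0.45 (p = 0.00036, adjusted p = 0.0027), and r = 0.49 without the 2 steers farthest from the median of bta-miR-15b, with 0.57, 0.34 and 0.50 within breeds. bta-miR-15b was also related to bta-miR-16a, at r = 0.43 (permutation p = 0.00061, adjusted p = 0.00375) and rho = 0.42 (p = 0.00112, adjusted p = 0.0056), and r = 0.33 without the 2 farthest steers, with 0.23, 0.59 and 0.44 within breeds. That bta-miR-15a went with bta-miR-16b more than with its neighbour touches the pair whose reads cannot be separated with certainty, and bta-miR-16a and bta-miR-16b themselves had r = 0.20 (permutation p = 0.149, adjusted p = 0.186) and rho = 0.18 (p = 0.184, adjusted p = 0.261). The differences between these correlations were not tested.

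The neighbours bta-miR-195 and bta-miR-497 had r = 0.36 (permutation p = 0.00924, adjusted p = 0.0277) and rho = 0.26 (p = 0.0505, adjusted p = 0.152). Without the 2 steers farthest from the median of bta-miR-195, r was 0.19, so that this relation rests in part on those steers. It held in Angus at r = 0.74, but was -0.26 in Charolais and 0.29 in KC. bta-miR-497 was also related to bta-miR-16b, at r = 0.43 (permutation p = 0.001, adjusted p = 0.00375) and rho = 0.35 (p = 0.00715, adjusted p = 0.0268), with 0.40, 0.62 and 0.21 within Angus, Charolais and KC, and r = 0.35 without the 2 farthest steers. bta-miR-195 and bta-miR-15a were the only pair below 0, at r = -0.10.

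**Figure D4:**
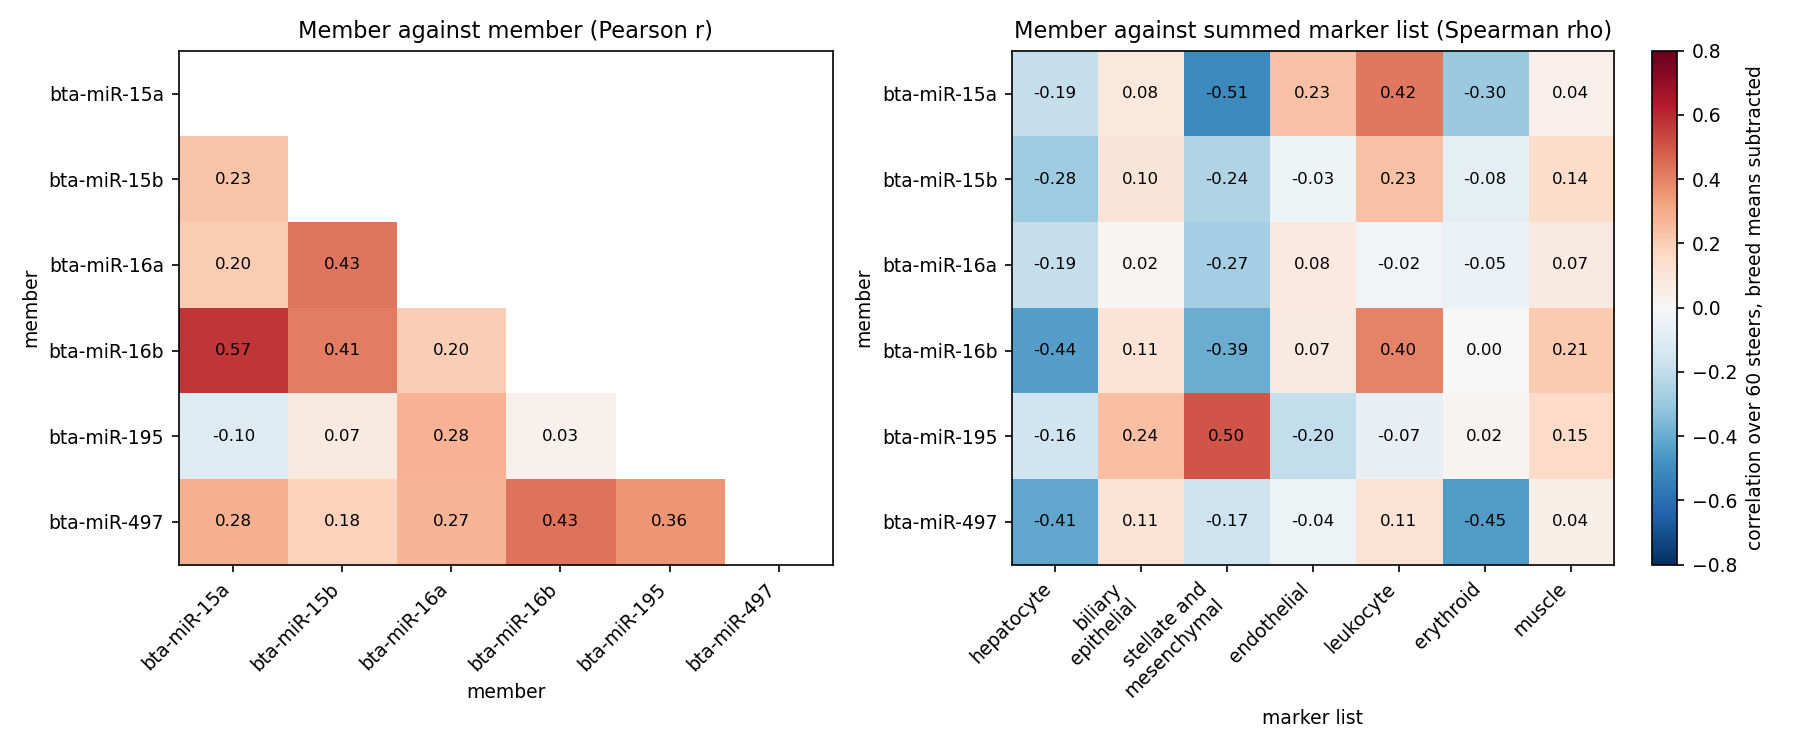
Left, Pearson's r between each pair of members over 60 steers with breed means subtracted from log2 CPM; right, Spearman's rho of each member with the summed CPM of 7 lists of marker miRNAs, over the same steers. bta-miR-15a and bta-miR-16b form the reddest pair at 0.57, and bta-miR-15a and bta-miR-195 have opposite signs with the stellate and mesenchymal list.

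The liver samples hold several cell types, and in such bulk samples fewer cells of a type and less RNA per cell cannot be told apart. Each member was therefore set beside 7 lists of marker miRNAs, as a description with no test over 60 steers that share the scaling. bta-miR-195 went with the list of 5 stellate and mesenchymal miRNAs, at rho = 0.50, with 0.19 in Angus, 0.62 in Charolais and 0.62 in KC. bta-miR-15a went against the same list, at rho = -0.51, with -0.65, -0.46 and -0.39 within the breeds, and bta-miR-16b did so at -0.39. Each list is a sum of CPM, so that its most abundant miRNA weighs most. In this list it is bta-miR-143, which stood at 114207 CPM or more in every steer. Among the hepatocyte, leukocyte and erythroid miRNAs it is bta-miR-192, bta-miR-142-5p and bta-miR-486. bta-miR-497 had rho = -0.17 with this list, although a member of it, bta-miR-199a-3p, was the miRNA most like bta-miR-497. bta-miR-15a and bta-miR-16b went with the list of 5 leukocyte miRNAs, at rho = 0.42 and 0.40 (0.32, 0.52 and 0.46, and 0.52, 0.40 and 0.18, within the breeds), and against the 4 hepatocyte miRNAs at -0.19 and -0.44. Within Angus, Charolais and KC, the last relation was at -0.41, -0.35 and 0.46 for bta-miR-15a and -0.45, -0.77 and -0.0030 for bta-miR-16b. bta-miR-497 had rho = -0.45 with the 3 erythroid miRNAs, with -0.74 in Angus, -0.38 in Charolais and -0.10 in KC. With the list of endothelial miRNAs, rho ran from -0.195 for bta-miR-195 to 0.234 for bta-miR-15a over the 60 steers. Within Angus, Charolais and KC it was -0.036, -0.68 and 0.12 for bta-miR-195 and -0.053, 0.64 and 0.21 for bta-miR-15a. Over the 60 steers, no member had a rho beyond 0.243 in size with the lists of biliary or muscle miRNAs. Within breeds, bta-miR-195 reached 0.355 with the biliary list in KC and bta-miR-16b reached 0.55 with the muscle list in Angus. Within the muscle list, bta-miR-206, a skeletal muscle miRNA, was at 0 counts in 57 of 60 steers. The rest of that list was detected in every steer, bta-miR-133a at 17.75 to 55.22 CPM and bta-miR-1 at 0.2195 to 10.44 CPM.

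Beside the difference of bta-miR-195 in Angus, the summed stellate and mesenchymal list ran from 116112 to 169163 CPM (low-RFI steers) and from 151005 to 197338 CPM (high-RFI steers). The part of this list in the difference of bta-miR-195 was not tested. All 5 miRNAs of the list were detected in every steer.

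By Spearman's rho over the 60 steers, with breed means subtracted and 442 other tested miRNAs, the miRNA most like bta-miR-15a was bta-miR-32 at 0.59, followed by bta-miR-16b at 0.59, bta-miR-27a-3p at 0.56 and bta-miR-425-5p at 0.56. For bta-miR-16b it was bta-miR-15a, then bta-miR-27a-3p at 0.57 and bta-miR-223, a miRNA of myeloid cells, at 0.50, and bta-miR-93 at 0.50. bta-miR-195 was most like bta-miR-145 at 0.54 and bta-miR-143 at 0.50, both miRNAs of smooth muscle and stromal cells, and then bta-miR-99b at 0.49, while its neighbour bta-miR-497 came 51st at 0.26. bta-miR-497 was most like bta-miR-199a-3p at 0.49, bta-miR-27a-3p at 0.45 and bta-miR-224 at 0.44. bta-miR-15b was most like bta-miR-345-5p at 0.48 and bta-miR-150, a lymphocyte miRNA, at 0.46, with bta-miR-16b at 0.45 and bta-miR-11995 at 0.42 after them. bta-miR-16a was most like bta-miR-671 at 0.50, which stood at a mean of 0.859 CPM, and then bta-miR-15b at 0.42, bta-miR-140 at 0.41 and bta-miR-193a-3p at 0.41.

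Among the 588 sequences of the list, the only other miRNA with the family seed was bta-miR-424-5p. The seeds of known miRNAs outside that list were not read. bta-miR-424-5p was in the range of bta-miR-15b at 16.4 ± 8.75 CPM (SD, n = 60) and varied more in KC. There the low-RFI steers stood at 13.6, 16.02, 19.2, 21.3, 21.5 and 73.1 CPM, and the high-RFI steers at 7.47, 11.3, 12.1, 17.2, 18.8 and 35.1 CPM. The groups overlapped, and 1 low-RFI steer stood far above the rest. The log2 difference was 0.76 ± 0.46 in KC (exact permutation p = 0.227, edgeR adjusted p = 0.905), and it had the other sign in Charolais, at -0.32 ± 0.18 (exact permutation p = 0.0628, edgeR adjusted p = 0.857). Its partner strand, bta-miR-424-3p, was 2.09-fold higher in low-RFI Angus (log2 difference 1.06 ± 0.43; edgeR unadjusted p = 0.0240, adjusted p = 0.957; exact permutation p = 0.0390) and so met the call rule within that breed, at 1.66 to 5.14 CPM against 0.17 to 2.90 CPM in the high-RFI steers, near the level of 3 counts. bta-miR-503-5p, from a gene that neighbours MIR424 in mammals, had 3 counts or less in all 60 steers.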

How the data were processed

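Liver small RNA of 60 steers was sequenced, giving 1 library for each. The deposited files hold unnormalized read counts per pair of mature miRNA and precursor, which the authors obtained by adapter clipping with cutadapt 1.16, keeping reads of 15 to 28 bases, removing reads of other small RNAs, alignment with Bowtie 1.1.1 to UMD3.1 and counting with miRDeep2 (versions from the submitters' processing notes). Reads were not marked by molecular identifiers, and how miRDeep2 divided reads between near-identical miRNAs is not given in the sources used here. Counts of several precursors were averaged and rounded. Predicted miRNAs were not analysed here. Groups follow the breed and RFI group of the labels. The members and lists were chosen with earlier results of these data known.

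RFI groups were compared within each breed (12 steers), over 36 steers with breed as a term, and by an interaction of both. Breeds were compared over 60 steers. These fits used the quasi-likelihood F test of edgeR 4.0.16 (R 4.3.3) with TMM scaling, on miRNAs that reached 1 CPM in 6 or more steers, and p-values were adjusted by the method of Benjamini and Hochberg over every miRNA tested. edgeR holds an earlier and a newer quasi-likelihood form. Both were run, with further variants (robust estimates, library sizes kept or recomputed after the filter, and the newer form without a separate dispersion step), and the newer form was adopted after their results had been seen, because its counts of called miRNAs within breeds equalled those of an earlier processing of these data. The earlier form, also with robust estimates, is an alternative. Each SE is the log2 difference divided by the root of its F value. The fit was also run on simulated counts with known changes, drawn independently for each steer, which does not bear on related steers. Group means of log2 CPM (prior count 0.5) were also compared by exact two-sided permutation over the 924 relabelings of the 12 steers. Correlations used 100000 two-sided permutations within breeds. Alternatives drew on DESeq2 1.42.0, and the remaining steps on Python (numpy, scipy, pandas).

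Named beside the members are bta-miR-424-5p, which has the same seed, bta-miR-424-3p and bta-miR-503-5p, the 3 miRNAs outside the family most like each member by Spearman's rho, and miRNAs of the marker lists where a result turns on them. RefSeq gene symbols of ARS-UCD2.0 matched all 6 members, and since the files use UMD3.1 no coordinates are given. Depth per steer is given with the results, and p-values and intervals cover the spread between steers, some of them half-sibs.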

Additional observations from a re-analysis of the deposited data

Results flagged for a closer look

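Of the 54 sets of values tested, the 6 members in 9 groups of 6 or 8 steers, 1 held a steer far from the others by Dixon's ratio. In an ungrouped Charolais steer, number 16, bta-miR-15b stood at 8.01 CPM (33 counts), while the other 7 ungrouped Charolais steers ran from 15.03 to 24.5 CPM. Chance alone flags about 1 in 20 groups at this limit. The steer carries no RFI group and entered only the breed comparisons and the correlations. No interaction of RFI group and breed passed an adjusted p under 0.05 for a member.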

How the results depend on the processing

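The count of members called was 0 of 6 in each of the 8 comparisons, and it was 0 under all 132 alternative fits of these counts, among them the 36 that left out 1 steer (0 to 0 members called within Angus, Charolais and KC). The alternatives were the likelihood ratio test, DESeq2, its size factors in edgeR, library totals alone, looser and stricter filters, summed precursors, bta-miR-16a and bta-miR-16b as 1 feature, counts thinned to the lowest total, sire as a block, other sets of steers, the replicate block and, chosen after seeing the data, the earlier form of edgeR with and without robust estimates.

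Over all miRNAs, the earlier form called 9, 7 and 7 miRNAs within Angus, Charolais and KC, and 9, 6 and 7 with robust estimates, against 10, 9 and 7 by the newer form. With either of the first, 0 of 426 passed over 36 steers, where the newer form had 1. bta-miR-15b over 36 steers had an unadjusted p between 0.0133 and 0.202 under its 9 alternatives, and bta-miR-195 in Angus between 0.0184 and 0.13 under its 12, with adjusted p of at least 0.896 and 0.775.

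The replicate block, with the number of the sample title as a block between breeds, gave 0 members called. Steers with the same number had median correlations of 0.013, 0.020 and -0.010 between breeds, and 2, 2 and 3 of 20 pairs exceeded 0.1, so that the numbers are names only.

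Of 508 alternative values of 42 log2 differences, 37 had the other sign, none of them called, and their cause was not tested. With sire as a block, they were in Angus -0.17 for bta-miR-15a, -0.030 for bta-miR-15b and -0.13 for bta-miR-16b, in Charolais -0.32 for bta-miR-195 and 0.013 for bta-miR-497, and in KC -0.011 for bta-miR-15b, -0.019 for bta-miR-16b and 0.10 for bta-miR-497. The block widened differences over all miRNAs and moved bta-miR-497 in Angus to -0.56, bta-miR-16a in Charolais to 0.50 and bta-miR-195 in KC to -0.34. It rests on 5, 5 and 4 of 12 steers, in that order, whose sire had both groups. In Charolais and in KC, only 1 of these steers was low-RFI. bta-miR-15a in Charolais was -0.036 with thinned counts and -0.014 in 1 fit of 36 steers. For Charolais against Angus, bta-miR-16a was 0.0074 with DESeq2 and with its size factors, 0.014 without a filter, 0.0058 at 10 counts in every steer, 0.010 with summed precursors, 0.0094 thinned, 0.015 without pairs listed for only some steers and 0.050 in 36 steers, and bta-miR-16b was 0.011, 0.011, 0.017, 0.011, 0.012, 0.017 and 0.0053 under the same settings without thinning. In that comparison bta-miR-15b was 0.027 in 36 steers and bta-miR-497 -0.026 with library totals alone. For KC against Angus, bta-miR-16b was 0.0021 with summed precursors. For KC against Charolais, bta-miR-16b was -0.026 with DESeq2 and with its size factors, -0.021 without a filter, -0.023 at 10 counts in every steer, -0.0094 with summed precursors, -0.023 without pairs listed for only some steers and -0.027 in 36 steers, while bta-miR-16a was -0.032 in 36 steers and bta-miR-497 -0.017 thinned.

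Leaving out 1 steer also turned the sign of 5 uncalled differences, at the furthest to -0.0068 for bta-miR-15a in Angus (without low-RFI steer 2), -0.022 for bta-miR-15a and -0.039 for bta-miR-195 in Charolais (both without low-RFI steer 15), and 0.055 for bta-miR-497 in Charolais (without high-RFI steer 9) and 0.034 in KC (without high-RFI steer 8).

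None of the 18 exact p-values within breeds was under 0.05, and with library totals alone 1 was, that of bta-miR-16a in Charolais. Of the 15 correlations between members, 5 passed, against 15 with library totals alone, 4 within Angus, 2 within Charolais and 0 within KC, where 20 steers were left. How many pairs of other miRNAs would pass was not computed. bta-miR-15b had 33 to 156 counts per steer.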
